A study of Mus musculus with 12 samples.

Results

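A group of 9 serpin genes of the liver was described: Serpina1a, Serpina1b, Serpina1c, Serpina1d and Serpina1e, which encode the mouse antitrypsins, Serpina3k, Serpina3m and Serpina3n of the antichymotrypsin family, and Serpina6, which encodes the corticosteroid-binding globulin. The genes were chosen by name as these 3 neighbouring groups, all in 1 serpin cluster on chromosome 12. In GENCODE M21 on GRCm38 the cluster runs from Serpina6 at chr12:103646630-103657212 to Serpina3n at chr12:104406729-104414329. They are 9 of the 14188 protein-coding genes measured, with 15 of the 29883 listed transcripts. The RNA came from the livers of 12 mice, 6 per group, after 8 weeks of treatment that began at 6 weeks of age. Mice of both groups were injected with carbon tetrachloride (CCl4) into the peritoneum 2 times per week, a toxin that injures hepatocytes and leads to fibrosis, so the controls carried the injury too. The PZH group received Pien Tze Huang (PZH), a traditional Chinese medicine, by gavage each day, and the control group received double distilled water in the same way. The labels give the strain as C57BL/8, whereas the study's methods name male C57BL/6J mice. Livers without CCl4 were not analysed here, so each difference compares PZH with water in injured livers.

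Serpins are inhibitors that present a flexible loop, the reactive centre loop, as bait to a protease, and the protease that cuts the loop is trapped in an inactive complex. Antitrypsin is among the most abundant secreted products of hepatocytes and restrains neutrophil elastase, while antichymotrypsin restrains chymotrypsin-like proteases and belongs to the plasma proteins that change with inflammation. Corticosteroid-binding globulin kept the serpin fold but carries glucocorticoids in plasma instead of inhibiting a protease. Mice have several copies of the antitrypsin and antichymotrypsin genes where humans have a single gene of each.

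The coding sequence of the loop is shown because it holds bases that tell apart copies whose remaining sequence is nearly the same. The coding sequences of the 5 Serpina1 paralogues were 96.3% to 98.5% identical over 10 pairs, those of the 3 Serpina3 genes 82.7% to 91.0% over 3 pairs, and Serpina6 was 55.9% to 58.8% identical to the other 8. The lines below give 75 coding bases of exon 5, the last exon, from the hinge of the loop onward, in GENCODE M21 on GRCm38. Capitals mark the 18 bases at which the 5 paralogues do not all have the same letter.
Serpina1a (chr12:103853756-103853830, minus strand): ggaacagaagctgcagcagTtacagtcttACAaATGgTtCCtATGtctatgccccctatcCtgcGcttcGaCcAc
Serpina1b (chr12:103728323-103728397, minus strand): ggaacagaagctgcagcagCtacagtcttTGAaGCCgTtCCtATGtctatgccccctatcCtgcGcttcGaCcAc
Serpina1c (chr12:103895093-103895167, minus strand): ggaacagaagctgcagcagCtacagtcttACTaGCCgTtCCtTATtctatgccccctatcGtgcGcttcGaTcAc
Serpina1d (chr12:103763761-103763835, minus strand): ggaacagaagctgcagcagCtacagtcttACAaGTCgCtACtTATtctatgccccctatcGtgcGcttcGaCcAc
Serpina1e (chr12:103947099-103947173, minus strand): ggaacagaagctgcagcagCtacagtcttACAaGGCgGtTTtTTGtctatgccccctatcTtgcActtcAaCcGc

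For the Serpina3 genes, 60 bases of exon 5 are given from the same hinge, and capitals mark the 28 bases not shared by all 3 genes.
Serpina3k (chr12:104345269-104345328, plus strand): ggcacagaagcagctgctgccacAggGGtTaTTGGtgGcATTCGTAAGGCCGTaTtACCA
Serpina3m (chr12:104393769-104393828, plus strand): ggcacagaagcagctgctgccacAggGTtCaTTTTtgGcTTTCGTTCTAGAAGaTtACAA
Serpina3n (chr12:104413448-104413507, plus strand): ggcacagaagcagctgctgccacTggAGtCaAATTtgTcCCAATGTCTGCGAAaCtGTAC

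This likeness bears on the measurement, since reads were 150 bases long. Of all windows of 150 bases in the leading transcript, 50.5% in Serpina1a and 50.5% in Serpina1c also occurred, letter for letter, in a transcript of another Serpina gene of GENCODE M21. The share was 21.2% in Serpina1b, 20.2% in Serpina1d and 9.4% in Serpina1e. It was 0.3% in Serpina3k and in Serpina3m and 0% in Serpina3n and Serpina6. How reads that match several paralogues were divided is not given in the sources used here, so the Serpina1 values were also summed over the family.

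The promoters of the Serpina1 paralogues were nearly the same as well. RefSeq promoters (GRCm38.p6) were matched for 6 of the 9 genes, namely the 5 Serpina1 paralogues and Serpina3n. The letters GTTAAT, the core of the binding site of HNF1, a transcription factor of hepatocytes, occurred on either strand in all 5 Serpina1 promoters and not in that of Serpina3n, against 7.1% of 32851 promoters of equal length. The letters TTCNNNGAA, a form of the STAT site, occurred in none of the 6, against 8.3% of all promoters. Since the 5 Serpina1 promoters are near copies of each other, their matches are not independent. These counts were not tested against the shares over all promoters. For Serpina1a and Serpina1e, the paralogues set against each other below, 116 bases upstream of the start site are given, aligned on this motif (100 bases before it and 16 from its first base on). They begin at -121 from the RefSeq start site in Serpina1a and at -178 in Serpina1e. Capitals mark the bases of Serpina1e that differ from Serpina1a.
Serpina1a (chr12:103863625-103863740, minus strand): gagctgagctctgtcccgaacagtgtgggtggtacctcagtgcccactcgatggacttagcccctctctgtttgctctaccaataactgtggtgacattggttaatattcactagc
Serpina1e (chr12:103956960-103957075, minus strand): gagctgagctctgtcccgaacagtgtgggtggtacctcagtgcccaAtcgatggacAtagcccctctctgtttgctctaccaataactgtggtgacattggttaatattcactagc
These stretches were identical at 114 of 116 bases (98.3%), and the other 3 paralogues were 94.8% to 98.3% identical to Serpina1a over the same stretch.

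Levels were taken as FPKM (fragments scaled by transcript length and library size), which the authors deposited per transcript and which were summed per gene here. The depth implied by the steps of low FPKM values was about 26.8 to 43.0 M fragments per mouse. It is a rough estimate, since at that depth between 15.0% and 27.8% of each mouse's low values came within 0.02 of a whole fragment. PZH 1 had the largest sum of FPKM. The spread between mice is given as the error of each value. Genes were compared on log2(FPKM + 1) with limma, and a fold change is the difference of group means on that scale, PZH minus control. A gene was called at an adjusted p under 0.05 (Benjamini-Hochberg over all 14188 genes). At this threshold 12.7% of all genes were called higher in PZH livers and 32.1% were called lower. Dividing each mouse by a median-ratio scale factor, which sets the typical gene to no change, moved the median log2 fold change of all genes from -0.11 to 0.00. It also moved the share of higher genes among the calls from 28.3% to 50.6%, so each member is given under both scalings where the call differs.

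Of the 9 members, 1 was called higher (Serpina6), 3 were called lower (Serpina3k, Serpina3m and Serpina3n) and 5 were not called (the Serpina1 paralogues). Read against the background of all genes, 3 of 9 lower members is close to the 32.1% of genes called lower. The median log2 fold change of the members was 0.00, against -0.11 over all genes. By the criterion of a 2-fold change with an unadjusted p under 0.05, which 4.02% of all genes met, only Serpina6 passed among the members. Serpina6 was also the only member whose groups did not overlap, a state that 6.46% of all genes reached with PZH higher and 17.9% with PZH lower. After median-ratio scaling only the Serpina6 call remained. In bulk liver RNA, fewer cells of a type and less RNA per cell cannot be told apart.

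**Figure D1:**
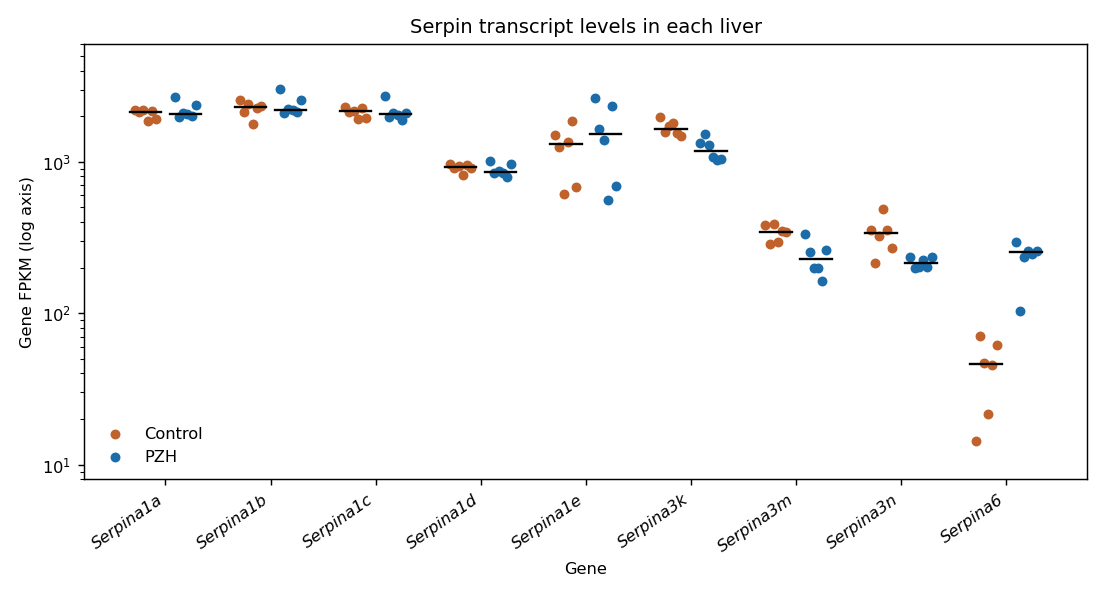
FPKM of each of the 9 genes (log axis) in each of the 6 control livers (orange) and 6 PZH livers (blue), with the group median as a black line. Serpina6 separates the groups without overlap, the Serpina3 genes lie lower in most PZH livers, and Serpina1e is spread widely within both groups.

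Serpina6, the carrier of glucocorticoids, rose in the PZH group. In the control livers the FPKM of Serpina6 were 14.3, 71.2, 46.9, 21.7, 45.7 and 61.7 in mice 1 to 6. In the PZH livers they were 295.8, 103.9, 235.3, 258.5, 246.4 and 257.4. Every PZH liver lay above every control liver, PZH 2 was the lowest of its group and well apart from the other 5, and the control livers differed among themselves by 4.98-fold. The mean was 233 ± 66.4 FPKM with PZH and 43.6 ± 22.1 FPKM without (SD, n = 6 each), a ratio of means of 5.35. The log2 fold change was 2.51 (SE 0.37, 95% interval 1.71 to 3.32, limma adjusted p = 0.000197). It was 2.70 after median-ratio scaling and 2.24 to 2.73 when any 1 mouse was left out.

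Both listed transcripts of Serpina6 moved with the gene. Serpina6-201 (ENSMUST00000044159), the full transcript of 1605 bases on the minus strand, carried 99.1% of the gene's FPKM and its log2 fold change was 2.51 ± 0.39 (SE, limma adjusted p = 0.000916 over all transcripts). Serpina6-202, a short transcript of 356 bases within the gene, ran from 1.28 to 3.32 FPKM in PZH livers and from 0 to 0.736 FPKM in control livers, of which 1 mouse was listed at 0. Of the 15 member transcripts 7 were called, 2 higher and 5 lower, against 19.7% of all 29883 transcripts called in either direction. All 15 averaged at least 1 FPKM, whereas the 29883 include weaker transcripts, so the member calls and that share are not of like transcripts. After median-ratio scaling 2 member transcripts were higher and 1 lower, and 5054 of the 29883 were called.

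Serpina3k, the most abundant of the antichymotrypsin-like genes in these livers and known for inhibiting tissue kallikrein, fell in the PZH group on the FPKM as deposited. The control livers had 1988.9, 1566.1, 1718.8, 1792.2, 1541.3 and 1472.0 FPKM of Serpina3k. The PZH livers had 1341.3, 1526.7, 1286.8, 1074.4, 1023.0 and 1043.3 FPKM. Of the PZH livers, PZH 2 lay within the control range and the other 5 lay below it. The log2 fold change was -0.47 (SE 0.11, 95% interval -0.72 to -0.23, limma adjusted p = 0.00398). After median-ratio scaling it was -0.28 with an adjusted p of 0.0707, and the call was lost.

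Serpina3m, a further antichymotrypsin-like gene next to Serpina3k, showed a difference of similar size at a much lower level. Its control livers had 381.1, 285.3, 386.5, 293.2, 347.7 and 345.3 FPKM, and its PZH livers had 331.3, 253.5, 199.5, 199.8, 162.8 and 261.8 FPKM. Only PZH 1 reached into the control range. The log2 fold change of Serpina3m was -0.56 (SE 0.15, 95% interval -0.89 to -0.23, limma adjusted p = 0.00958), and -0.37 with an adjusted p of 0.106 after median-ratio scaling.

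Serpina3n, an antichymotrypsin-like inhibitor that also acts on granzyme B, had a wide range in the control group and a narrow one in the PZH group. Its control livers had 354.6, 213.6, 321.7, 489.9, 355.0 and 268.2 FPKM, and its PZH livers had 236.1, 199.0, 203.2, 225.4, 203.5 and 236.1 FPKM. The coefficient of variation of Serpina3n was 28.1% in the control group and 7.97% in the PZH group, against medians of 13.8% and 15.7% over the 405 genes with a mean of at least 100 FPKM. Only Control 2 lay among the PZH livers. The log2 fold change of Serpina3n was -0.57 (SE 0.16, 95% interval -0.91 to -0.23, limma adjusted p = 0.00992), and -0.38 with an adjusted p of 0.0844 after median-ratio scaling.

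Summed over the 3 genes, the Serpina3 level separated the groups on the FPKM as deposited although each gene alone overlapped. The sum was 2725, 2065, 2427, 2575, 2244 and 2085 FPKM in the control livers and 1909, 1979, 1690, 1500, 1389 and 1541 FPKM in the PZH livers. All 6 PZH livers lay below all controls, with PZH 2 and Control 2 closest to each other. The difference of mean log2(sum + 1) was -0.50, with a within-group SD of 0.18. After median-ratio scaling it was -0.31, the groups overlapped, and 4 of 6 PZH livers lay below all controls. Within this sum Serpina3k made up 72.8% ± 3.60 with PZH and 71.4% ± 2.60 in controls (SD, n = 6 each), a share that does not depend on scaling between mice. None of the 3 shares passed a test between groups (two-sided exact permutation tests, adjusted p = 0.89 for each over 8 shares).

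**Figure D2:**
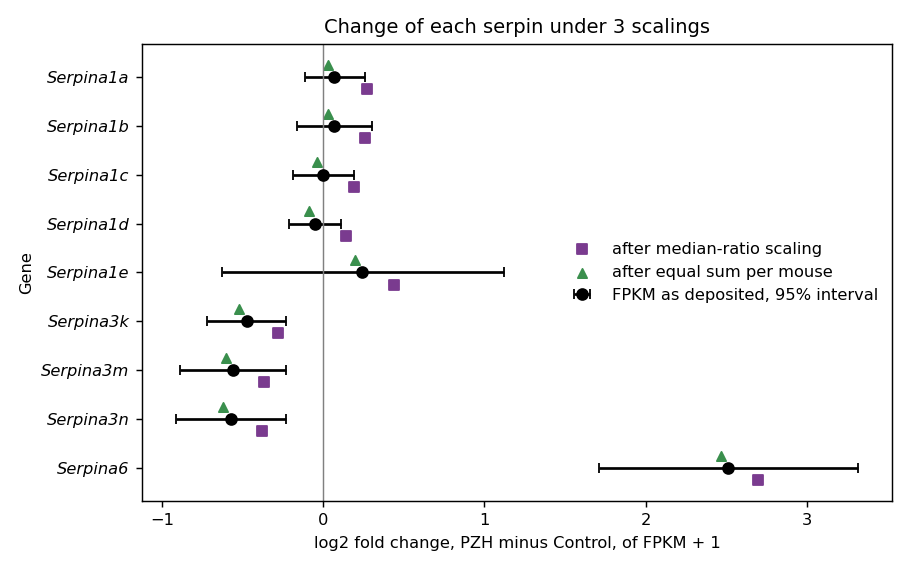
Log2 fold change of each gene, PZH minus control, on FPKM + 1 as deposited (black, with its 95% interval), after median-ratio scaling (purple squares) and after scaling each mouse to an equal sum (green triangles). The 3 Serpina3 genes sit at -0.47 to -0.57 as deposited and at -0.28 to -0.38 after median-ratio scaling, while Serpina6 stays between 2.47 and 2.70.

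The Serpina1 paralogues, the antitrypsins, held the 3 most abundant members, and none was called. By mean FPKM Serpina1b, Serpina1a and Serpina1c ranked 13, 14 and 17 among all genes, followed by Serpina3k at 29, Serpina1e at 31 and Serpina1d at 46. Serpina3m ranked 132, Serpina3n 140 and Serpina6 292. The means of Serpina1a, Serpina1b and Serpina1c lay within 2077 to 2253 FPKM in the control group, closer together than the spread between mice of Serpina1b.

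Serpina1a ranged from 1868.0 to 2206.6 FPKM in the control livers (median 2142) and from 1975.2 to 2669.5 FPKM in the PZH livers (median 2081), with a log2 fold change of 0.07 (95% interval -0.11 to 0.26, limma adjusted p = 0.502). Serpina1b ranged from 1789.0 to 2570.1 FPKM in the control livers (median 2300) and from 2099.8 to 3005.4 FPKM in the PZH livers (median 2215), with a log2 fold change of 0.07 (95% interval -0.16 to 0.30, adjusted p = 0.613). For both genes the groups overlapped, with PZH 1 and PZH 6 above all controls and Control 4 below all PZH livers. For Serpina1a, Control 6 (1913.0 FPKM) also lay below all PZH livers. For Serpina1b, PZH 6 (2571.8 FPKM) barely exceeded the highest control (2570.1 FPKM). Serpina1c ranged from 1916.0 to 2301.8 FPKM in the control livers (median 2154) and from 1891.9 to 2703.7 FPKM in the PZH livers (median 2065), with a log2 fold change of 0.00 (95% interval -0.19 to 0.19, adjusted p = 0.994). Serpina1d, the least abundant paralogue, ranged from 820.7 to 962.6 FPKM in the control livers (median 930.3) and from 795.9 to 1019.3 FPKM in the PZH livers (median 854.0), with a log2 fold change of -0.05 (95% interval -0.21 to 0.11, adjusted p = 0.624). PZH 1 was the highest mouse for each of these 4 genes. The intervals of the 4 genes reach from -0.21 to 0.30, so small changes within that range remain compatible with these data. After median-ratio scaling the 4 log2 fold changes were 0.14 to 0.27, that of Serpina1d changing sign, with adjusted p of 0.0675 to 0.246.

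Serpina1e was spread more widely between mice than its 4 paralogues, and its group means were not called different. The control livers had 1508.3, 1250.1, 616.6, 1360.7, 1856.3 and 684.5 FPKM of Serpina1e. The PZH livers had 2650.8, 1653.8, 1401.8, 563.6, 2330.1 and 688.1 FPKM. In each group 2 livers lay far below the other 4. The highest mouse exceeded the lowest 4.70-fold among PZH livers and 3.01-fold among controls. The coefficient of variation of Serpina1e was 54.6% among PZH livers and 39.7% among controls, rank 8 and rank 21 from the highest among the 405 genes with a mean of at least 100 FPKM. For Serpina1a to Serpina1d it was 9.81% to 14.8% and 5.59% to 12%. The log2 fold change of Serpina1e was 0.24 (SE 0.40, 95% interval -0.63 to 1.12, limma adjusted p = 0.656), a wide interval that includes a rise of about 2-fold.

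The sum over the 5 paralogues depends less than each value on how reads were divided among them. It was 9549, 8571, 8333, 7754, 9491 and 7805 FPKM in the control livers and 12049, 8536, 8679, 7716, 9151 and 8710 FPKM in the PZH livers. The groups overlapped, with PZH 1 above all others. The Serpina1 transcripts made up 2.28% to 3.25% of all FPKM in the PZH livers and 2.34% to 2.87% in the control livers. The difference of mean log2(sum + 1) was 0.08, below the within-group SD of 0.18, and it was 0.27 after median-ratio scaling. Serpina1e made up 7.30% to 25.5% of the sum in PZH livers and 7.40% to 19.6% in control livers. None of the 5 shares passed a test between groups (two-sided exact permutation tests, p = 0.13 to 0.94, adjusted p of at least 0.55 over 8 shares, smallest p possible 0.0022).

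**Figure D3:**
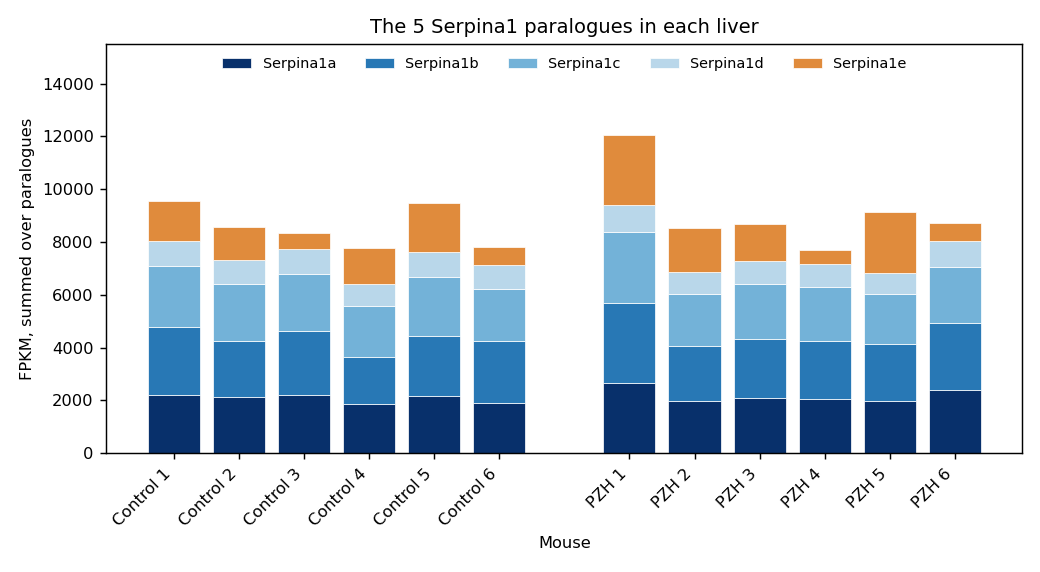
FPKM of the 5 Serpina1 paralogues stacked in each control and PZH liver, so that the bar height is the family sum. Serpina1a to Serpina1d form a similar block in most livers, while the orange Serpina1e segment runs from 563.6 FPKM in PZH 4 to 2650.8 FPKM in PZH 1.

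Of the minor antitrypsin transcripts, 2 were called lower although their genes were not called. How reads shared with the leading transcripts and with other paralogues were divided could not be checked for them. Serpina1b-204, 336 bases long and 0.520% of the gene's FPKM, was 9.32 ± 1.10 FPKM with PZH and 14.8 ± 2.48 FPKM in controls (SD, n = 6 each), with no overlap and a log2 fold change of -0.60 (limma adjusted p = 0.00268). Serpina1a-201, 0.196% of its gene's FPKM, was 3.51 ± 0.555 FPKM and 4.88 ± 0.911 FPKM, with overlap and a log2 fold change of -0.38 (adjusted p = 0.0453). The Serpina1a-201 call was lost with a pseudocount of 0.1 (adjusted p = 0.0728), median-ratio scaling (0.266), unmoderated variances (0.0575) and a variance trend (0.0521), while that of Serpina1b-204 held under each of these (0.00287 to 0.0221). The leading transcripts Serpina1a-202 and Serpina1b-201, with 93.9% and 99.2% of their genes' FPKM, had log2 fold changes of 0.08 each and were not called. Nor were Serpina1a-203, Serpina1c-201, Serpina1d-201, Serpina1e-201, Serpina1e-202 and Serpina1b-203, the last of which was listed at 0 in 2 mice. Serpina3k, Serpina3m and Serpina3n each had 1 listed transcript, which was called lower as its gene was.

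The tissue label was checked against markers of liver cell types. Of 8 listed hepatocyte markers Tf was absent from the deposited values, and the 7 measured were well expressed. Their summed FPKM was 41855 to 57749 in the PZH livers and 25292 to 38262 in the control livers, without overlap. Most of this sum was albumin, with a mean of 38437 FPKM with PZH and 24059 FPKM in controls. The median log2 fold change of the 7 markers was 0.28. Albumin (Alb, log2 fold change 0.68) and the urea cycle enzyme Cps1 (0.85) were higher, whereas Fgb (-1.17) and Hnf4a (-0.30) were lower, 3 higher and 2 lower in all. After median-ratio scaling 5 were higher and 1 lower, and Hnf4a was not called (-0.11, adjusted p = 0.25). The 9 neutrophil markers summed to 14.5 to 168 FPKM in the PZH livers and 20.1 to 66.6 FPKM in the control livers. Ly6g, a defining marker, was at 0 to 0.952 FPKM. The highest PZH liver had 76.0 FPKM of S100a8, against a group median of 7.04 FPKM. Of the 9 markers 2 were called lower and none higher, also after median-ratio scaling, and their median log2 fold change was 0.04. Ngp was not called (1.16, limma adjusted p = 0.0962), although every PZH liver lay above every control liver. Lymphocyte markers summed to 5.53 to 8.93 FPKM and 6.09 to 12 FPKM. The summed markers of macrophages (380 to 579 and 386 to 490 FPKM) overlapped between the groups. Those of stellate cells (305 to 392 and 229 to 351 FPKM) did too. So did those of sinusoidal endothelium (108 to 137 and 117 to 131 FPKM) and cholangiocytes (71.6 to 140 and 102 to 166 FPKM). On the FPKM as deposited, single macrophage and stellate cell markers were called both ways, and endothelial and cholangiocyte markers only lower. Over all genes 12.7% were called higher and 32.1% lower. Each sum is weighted to its most abundant genes, such as Spp1 in cholangiocytes (mean of 94.1 FPKM with PZH and 121 FPKM in controls). Of macrophage markers 3 of 10 were higher, with Clec4f (0.60) and Vsig4 (0.57), and 2 lower, with Marco (-2.21). Of stellate cell markers 2 of 9 were higher (Reln 0.98, Col3a1 0.62) and 2 lower (Acta2 -0.92, Des -0.47). Of endothelial markers 2 of 8 were lower (Lyve1 -0.62, Pecam1 -0.29), of cholangiocyte markers 1 of 6 (Sox9 -1.64) and of lymphocyte markers 1 of 7 (Ccl5 -0.83). After median-ratio scaling the higher and lower calls were 5 and 1 for macrophages, 5 and 2 for stellate cells, 1 and 1 for endothelium, 1 and 1 for cholangiocytes and 2 and 1 for lymphocytes. The part of cell composition in the serpin differences was not tested.

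Other serpins of the same clade were lower where they changed. Of 16 listed clade A genes 9 were measured, and 5 were called lower and none higher, against 32.1% and 12.7% of all genes. Their median log2 fold change was -0.28 against -0.11 over all genes. Serpina10, which restrains activated coagulation factor X, was 56.4 ± 5.35 FPKM with PZH and 97.6 ± 20.3 FPKM in controls (SD, n = 6 each), without overlap (log2 fold change -0.76, limma adjusted p = 0.000268). Serpina7, the thyroxine-binding globulin and like Serpina6 a hormone carrier, moved opposite to Serpina6, at 228 ± 59.2 FPKM and 370 ± 62.6 FPKM (-0.72, adjusted p = 0.00422). Serpina3g (-0.76) and the barely expressed Serpina3i (-0.28) were also lower, and Serpina11 (-0.08) and Serpina12 (-0.12) were not called. After median-ratio scaling 4 of the 9 were still called lower, and Serpina3g was not (adjusted p = 0.0564).

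Of 9 secreted serpins of other clades 3 were higher and 1 lower (median 0.01), against 12.7% and 32.1% of all genes. After median-ratio scaling 5 were higher and none lower (median 0.20). Serpind1, heparin cofactor II (0.61), Agt, angiotensinogen (0.44), and Serpinc1, antithrombin (0.41), were higher (limma adjusted p = 0.000702, 0.00966 and 0.0139). Serping1, the C1 inhibitor, was lower on the FPKM as deposited (-0.29, limma adjusted p = 0.0147) but not after median-ratio scaling (-0.10, adjusted p = 0.41). Serpinf1 (0.21) and Serpinf2 (0.01) were not called, but were called higher after median-ratio scaling (0.40 and 0.20, adjusted p = 0.0369 and 0.0472). Of 9 intracellular clade B serpins 7 were measured and 1 was called, Serpinb9b (-0.40), at under 1 FPKM in every mouse, while Serpinb6a (0.18) and Serpinb9 (-0.02) were not. After median-ratio scaling 3 of these were higher and 1 lower, with Serpinb6a among the higher (0.36, adjusted p = 0.0349).

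Granule genes of cells that release target proteases were scarcely detected. Of 9 listed genes of neutrophils, mast cells and cytotoxic lymphocytes, all proteases but the peroxidase Mpo, 6 were measured (Elane, Prtn3, Ctsg, Mpo, Gzma and Gzmb), and limma called 0 of them, also 0 at an unadjusted p under 0.05 and 0 without variance moderation. Gzma (granzyme A) averaged 0.449 and 0.477 FPKM and Gzmb (granzyme B) 0.321 and 0.365 FPKM in the PZH and control groups, levels at which a change would be hard to detect. Targets from other cells, such as kallikreins, were not listed.

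Genes that act on serpin transcription were mixed, and those of interleukin-6 signalling were mostly lower. Of 12 transcription factors 1 was higher and 5 lower (median -0.10), against 12.7% and 32.1% of all genes. After median-ratio scaling 2 were higher and 4 lower. Cebpa, a hepatocyte factor, was 60.5 ± 6.61 FPKM with PZH and 41.3 ± 6.86 FPKM in controls (SD, n = 6 each; log2 fold change 0.55), and its relative Cebpb was 3.58 ± 0.809 FPKM and 9.78 ± 2.98 FPKM (-1.20). Stat3, the factor activated by interleukin-6, was 23.6 ± 4.77 FPKM and 48.3 ± 11.6 FPKM (-0.99), and Rora was also lower (-0.71), all 4 without overlap. Nr3c1, the glucocorticoid receptor, was not called (0.11), nor was Onecut1 (-0.07). Of 12 genes of interleukin-6 signalling 11 were measured, 7 were lower and none higher (median -0.52), against the same shares. They included the receptor chains Il6st (-1.0) and Osmr (-1.33) and the kinase Jak1 (-0.52), whereas Il6ra (-0.23) and Lifr (0.10) were not called. After median-ratio scaling 7 were again called lower and none higher.

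Acute-phase plasma proteins, to which Serpina3 genes are often counted, were mostly lower. All 20 listed genes were measured, and 17 were called lower and none higher, against 32.1% and 12.7% of all genes. Their median log2 fold change was -1.11, against -0.47 to -0.57 for the Serpina3 genes. The fibrinogen chains Fga (-1.31), Fgb (-1.17) and Fgg (-1.17) and the lipopolysaccharide-binding protein Lbp (-1.31) did not overlap between the groups. Fga was 1538 ± 123 FPKM with PZH and 3879 ± 832 FPKM in controls (SD, n = 6 each; limma adjusted p = 1.56e-05). Saa3 (-1.06) and Saa4 (0.54) were not called. After median-ratio scaling 14 were lower and Saa4 was higher (0.73, adjusted p = 0.0327). The difference between this list and the Serpina3 genes was not tested.

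Genes that handle glucocorticoids, the cargo of Serpina6, or respond to them moved both ways. Of 16 listed genes 15 were measured, and 2 were higher and 6 lower (median -0.03). Over all genes 12.7% were called higher and 32.1% lower, so these counts are not read as a trait of the list. After median-ratio scaling 4 were higher and 4 lower, against 2807 and 2739 of all 14188 genes. Akr1d1, a steroid reductase of bile acid and steroid hormone metabolism, rose from 16.3 ± 6.85 FPKM to 68.8 ± 16.8 FPKM (control and PZH, SD, n = 6 each), without overlap (log2 fold change 2.09, limma adjusted p = 9.41e-05). Srd5a1, a further steroid reductase, was higher (0.57). Sgk1, a kinase induced by corticosteroids (-0.70), and the receptor chaperone Hsp90ab1 (-0.58) were lower, while Tat (0.32) and Hsd11b1 (0.18), which regenerates active glucocorticoid, were not called. Tat was called higher after median-ratio scaling (0.51, adjusted p = 0.047). Of the other response genes, Fkbp5 (-0.78), Zbtb16 (-0.73), Dusp1 (-1.40) and Errfi1 (-0.79) were also called lower, and Per1 (-0.65) and Tsc22d3 (0.14) were not called. The calls of Fkbp5 and Zbtb16 were lost after median-ratio scaling.

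Genes that fold, export or dispose of antitrypsin in the endoplasmic reticulum were mostly lower as deposited, while no antitrypsin gene was called. Of 17 genes 1 was higher and 10 lower (median -0.35), against 12.7% and 32.1% of all genes. After median-ratio scaling 3 were higher and 6 lower. The chaperones Hspa5 (-1.33) and Hsp90b1 (-0.91), the ubiquitin ligase Syvn1 (-1.38) and the cargo receptor Surf4 (-0.55) did not overlap between the groups. Hspa5 was 336 ± 86.4 FPKM with PZH and 841 ± 187 FPKM in controls (SD, n = 6 each; limma adjusted p = 8.64e-05). Canx (-0.22) and Lman1 (0.20), the cargo receptor that antitrypsin uses, were not called, and Lman1 was called higher after median-ratio scaling (0.39, adjusted p = 0.0146).

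**Figure D4:**
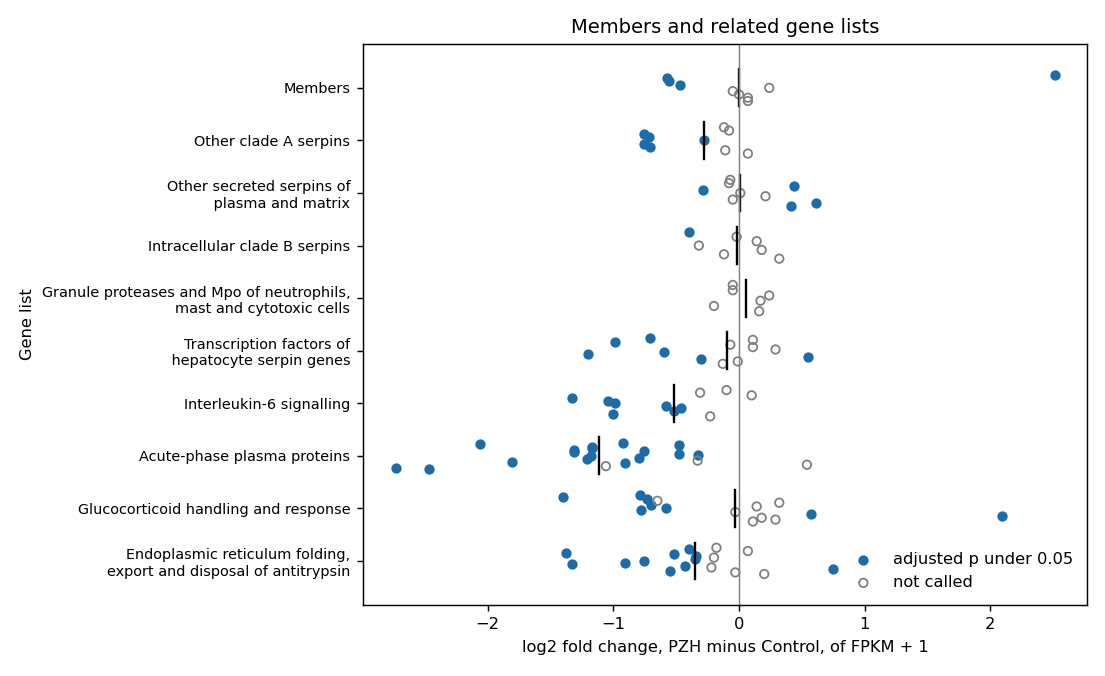
Log2 fold change of each measured gene, PZH minus control, for the 9 members and 9 related gene lists, with called genes filled, other genes open and the list median as a black line. The acute-phase median lies at -1.11 and that of interleukin-6 signalling at -0.52, while the median of the members lies at 0.00.

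The genes whose levels followed each serpin most closely from mouse to mouse were listed by the mean of their Pearson correlations within the 6 PZH and within the 6 control livers, among 10939 genes of at least 1 FPKM. The correlations given are the highest of many over few mice, and all genes of a mouse share its library depth. They are given as a description. Serpina6 was followed by Akr1c13 (mean r 0.96), Slc26a1 (0.96), Oxld1 (0.95), Iyd (0.94) and Hsd3b3 (0.94). Of these Slc26a1, a sulfate transporter (log2 fold change 1.24), Oxld1 (0.78), Iyd, an iodotyrosine deiodinase (0.81), and Hsd3b3, a steroid dehydrogenase (2.98), were also called higher, and Akr1c13 (0.14) was not. Serpina3k was followed by Cp, ceruloplasmin (0.91), and Fgb (0.88), both acute-phase proteins, and by Snrpf (0.87), Ubxn2a (0.87) and Poc5 (0.85), and all 5 were called lower. Serpina3m was followed by Glce (0.94), Ppcs (0.91), Commd9 (0.89), Sgsm1 (0.88) and Gm10131 (0.88). Serpina3n was followed by Pnp (0.92), Cd302 (0.89), Rbm7 (0.88), Saa3 (0.88) and Pnp2 (0.88). The Serpina1 sum was followed by Snrnp27 (0.95), Polr2j (0.92), Taf7 (0.91), Nat8f2 (0.91) and Smc1a (0.90).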

How the data were processed

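Liver RNA of 12 mice was depleted of ribosomal RNA by the authors and sequenced strand-specifically (150 bp reads). They trimmed reads with Trimmomatic, mapped them with HISAT2 2.1.0 to GRCm38, and estimated transcripts with StringTie 1.3.5 on Ensembl release 95. The authors deposited linear FPKM per transcript and mouse, divided by length and library size; the lncRNA table was not used. Gene FPKM was the sum of listed transcripts by GENCODE M21, which held 29876 of 29883 transcripts. No value was filtered. Counts were not recovered from FPKM, so no counting interval is given.

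Groups came from the sample names. Group differences in log2(FPKM + 1) were fitted with limma 3.58.1 (R 4.3.3), for genes and for transcripts, with Benjamini-Hochberg adjustment over the whole table; the fit was tested on simulated data. Paralogue shares, as log2 of a paralogue over the rest of its family, were compared by exact permutation over 924 labellings (scipy 1.17.1). Family sums were not tested. Sequences were read with Biopython 1.88. Members and lists were chosen with earlier results of these data known. From each list up to 4 called genes with the smallest p and up to 2 uncalled genes with the highest FPKM are named. Hnf4a, Ly6g, the marker genes, the measured granule genes and further glucocorticoid response genes are named beside their lists. The genes like Serpina1e were added after its values were seen. Results were recomputed with each mouse left out, with a replicate block, with median-ratio or equal-sum scaling, with a pseudocount of 0.1, without genes under a mean FPKM of 1, and with unmoderated or trended variances. Replicates are separate mice. The list of secreted serpins leaves out 1 gene, which is not reported here.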

Additional observations from a re-analysis of the deposited data

Results flagged for a closer look

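Among 22 sets of 6 values tested for a mouse that stands apart from its group, 4 had one. Chance alone gives about 1 in 20 for independent sets. These sets are not independent, since the genes share mice and the Serpina1 sum contains Serpina1c, so no excess over chance is read from them. Serpina1c was 2704 FPKM in PZH 1, and the sum of the Serpina1 paralogues was 12049 FPKM in PZH 1, both the highest of the PZH group. The gaps to the next mouse were 0.744 and 0.669 of the group's range. PZH 1 also had the largest FPKM sum over all genes, 370426, and without it the log2 fold changes of the Serpina1 genes stayed uncalled. Serpina1d was 821 FPKM in Control 4, the lowest of the control group (0.641 of the range). Serpina6 was 104 FPKM in PZH 2, the lowest of the PZH group (0.685 of the range), and still above the highest control at 71.2 FPKM.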

How the results depend on the processing

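Of 194 recomputed values 184, and of 372 recomputed without 1 mouse 370, stayed on their side of the threshold, within 1.5 times for counts, or within 1 SD for sums. Among those not called, values near 0 changed sign: Serpina1d under median-ratio scaling (0.14), and the shares of Serpina1a, Serpina1b and Serpina3n in 9 cases without 1 mouse (at most 0.04 in size). For the members median-ratio scaling changed most: those called fell to 1, Serpina3k (-0.28), Serpina3m (-0.37) and Serpina3n (-0.38) lost their calls, and the family sums differed by 0.27 for Serpina1 and -0.31 for Serpina3. The clade B serpin list, with 1 call, had 0 calls among genes of at least 1 FPKM, where Serpinb9b was not tested, 4 after median-ratio scaling, 2 with an equal sum per mouse and 2 with the replicate block. Without 1 mouse it had 1 to 2 calls, with 2 when PZH 2 or Control 2 was left out. With the mouse number as a replicate block, 5982 genes were called instead of 6358, 4442 transcripts instead of 5898, and the same 4 members and 7 member transcripts. The numbers did not pair the mice: deviations of same-numbered mice correlated at -0.078 to 0.093, and none correlated best with its own number. The FPKM give no counting error, and the division of reads among the Serpina1 paralogues could not be checked.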

Other observations

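The 4 livers with the lowest Serpina1e were PZH 4, PZH 6, Control 3 and Control 6. The genes whose levels followed Serpina1e most closely, a search added after its values were seen, were Vps29 (mean within-group Pearson r 0.94), Luc7l3 (0.94), Phgdh, an enzyme of serine synthesis (0.89), Mup7, a major urinary protein (0.88), and Ccdc51 (0.88), over 6 mice per group and 10939 genes. Mup7 was 20.1 to 137 FPKM in the PZH livers and 13.3 to 224 FPKM in the control livers, with a log2 fold change of -0.94 that was not called (limma adjusted p = 0.281). Major urinary protein genes are near-identical copies, and how their shared reads were divided is not given.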
